A study of Mus musculus with 8 samples.

Results

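The transcripts of 9 genes for homing, adhesion and egress receptors were followed through B-cell development in mouse bone marrow. They were the chemokine receptors Cxcr4, Cxcr5 and Ccr7, the sphingosine-1-phosphate (S1P) receptors S1pr1 and S1pr4, the integrin chains Itga4, Itgal and Itgb7, and the hyaluronan receptor Cd44. They were taken by their symbols from the mRNA table and were 9 of its 22298 genes. The cells came from wild-type female C57BL/6 mice aged 8 to 10 weeks. Pro-B cells were sorted as B220+IgM-CD43+, pre-B cells as B220+IgM-CD43-, immature B cells as B220+IgM+CD43- and mature B cells as B220hi IgM+CD43-. Cells of 3 mice were pooled for each population, and 1 rRNA-depleted RNA library was made from each pool. With 1 library per stage, no difference below has a replicate check and no p-value is given, and the intervals cover counting error only.

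These receptors decide where a developing B cell can stay and where it can go. CXCR4 reads CXCL12, a chemokine of marrow stromal cells, and keeps precursors in their niche, while CXCR5 and CCR7 read CXCL13 and the pair CCL19 and CCL21, which mark the follicles and T-cell zones of lymphoid organs. S1P is high in blood, and S1PR1 lets cells follow it out of the marrow. Integrins work as pairs of an α and a β chain: α4 pairs with β1 or β7 and binds VCAM-1 or MAdCAM-1, and αL pairs with β2 as LFA-1 and binds ICAM-1.

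The mRNA table held 867920 estimated counts for the pro-B library, 240231 for pre-B, 223495 for immature B and 849350 for mature B cells. A level is given as CPM, the count scaled to these totals, with a 95% exact Poisson interval. A gene was called higher or lower between 2 libraries if its CPM differed by at least 2-fold and the exact binomial interval of the ratio left out 1, among genes with at least 10 counts over both. A count of 0 was set to a floor of 3 counts per library, worth between 3.46 and 13.4 CPM. Ratios given below as at least some fold are taken against this floor, and their 95% counting intervals can start lower. The sort could be checked on its own genes. Spn, which encodes CD43, had 240 CPM in the pro-B library, 37.5 in pre-B, 0 in immature B and 44.7 in mature B cells. Ptprc, which encodes CD45 and its B220 form, had 290, 39.1, 69.8 and 676 CPM in the same order, so it was low in 2 populations that were gated on B220. Ighm, the gene of the IgM gate, had 3775, 7147, 7816 and 3902 CPM, so its RNA did not separate the IgM- from the IgM+ populations. The 5 B-lineage genes summed to between 5691 and 11903 CPM. The 6 pro-B genes summed to 2321 CPM in the pro-B library and to at most 179 in the others, with Dntt and Igll1 at 0 there. The 4 pre-B genes summed to 1278, 1066, 576 and 15.2 CPM, so their sum was not highest in the pre-B library. Rag2 (316 CPM) and Il2ra (83.3) were highest there, while Rag1 was highest in pro-B (918) and Vpreb3 in immature B cells (456). The 4 immature B genes summed to 4337, 7530, 9504 and 5087 CPM, so their sum was not particular to the immature B library. The 5 mature B genes summed to 685, 574, 3929 and 11729 CPM. Genes of other cells were present: the 8 myeloid genes summed to between 1070 and 1407 CPM with Csf1r at 0 in every library, the 3 erythroid genes to between 59.1 and 242 CPM, and the 3 plasma cell genes to between 41.2 and 142 CPM. The 7 T and NK cell genes summed to 205 CPM in the pro-B library and to at most 8.33 in the others. The largest in pro-B cells were Gzma (122 CPM) and Nkg7 (43.8). Cd3e and Cd3d were at 0 there, while Cd3d had 8.33 CPM in pre-B and Cd3e 1.18 in mature B cells. The 3 plasmacytoid dendritic cell genes summed to 282 CPM in the pro-B library and to at most 107 in the others, with Klk1b27 at 0 in every library.

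Cxcr4 (ENSMUSG00000045382) was abundant at every stage and moved little in CPM. From pro-B to mature B cells its counts were 949, 373, 234 and 1240, which is 1093 CPM (1025 to 1165), 1553 (1399 to 1718), 1047 (917 to 1190) and 1460 (1380 to 1544). The pre-B and mature B libraries were therefore the upper pair and the pro-B and immature B libraries the lower pair, with overlapping intervals inside each pair. No comparison passed 2-fold in CPM. The CPM ratio was 1.42 (1.26 to 1.60) for pre-B against pro-B, 0.674 (0.570 to 0.796) for immature B against pre-B and 1.39 (1.21 to 1.61) for mature B against immature B cells.

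Cxcr5 (ENSMUSG00000047880), the receptor that leads B cells into follicles, was listed at 0 in the pro-B, pre-B and immature B libraries and had 180.17 counts, or 212 CPM (182 to 245), in mature B cells. Against the floor, it was at least 15.8-fold higher in mature B than in immature B cells and at least 61.4-fold higher than in pro-B cells. The counting intervals of these ratios start at 12.7 and 49.4. A listed 0 has limits in this table, because 4 genes with at least 100 CPM in mature B cells, Cxcr5 among them, were at 0 in every other library. Another of these 4 was Ash1l, which encodes a widely used histone methyltransferase, with 501 CPM in mature B cells. In bulk RNA, fewer cells of a type and less RNA per cell cannot be told apart.

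Ccr7 (ENSMUSG00000037944) climbed at each step in CPM. Its counts were 107, 84, 154 and 1088 from pro-B to mature B cells, and its levels were 123 CPM (101 to 149), 350 (279 to 433), 689 (585 to 807) and 1281 (1206 to 1359). None of these 4 intervals overlapped its neighbour. The step from pro-B to pre-B cells was 2.84-fold (2.11 to 3.81), the next 1.97-fold (1.501 to 2.60) and the last 1.86-fold (1.57 to 2.22), so only the first passed 2-fold. In deposited FPKM the first step turned to a log2 ratio of -0.43, and it was 1.405 when the shift of the median of all genes was taken out. That step was also not called by edgeR's exact test at a dispersion of 0.16. The second step passed 2-fold with TMM scaling (log2 ratio 1.01), upper-quartile scaling (1.02) and deposited FPKM (1.003). The last passed it with deposited FPKM (2.81), also when the shift of the median of all genes was taken out (1.01). From pro-B to mature B cells Ccr7 was 10.4-fold higher (8.51 to 12.8).

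**Figure D1:**
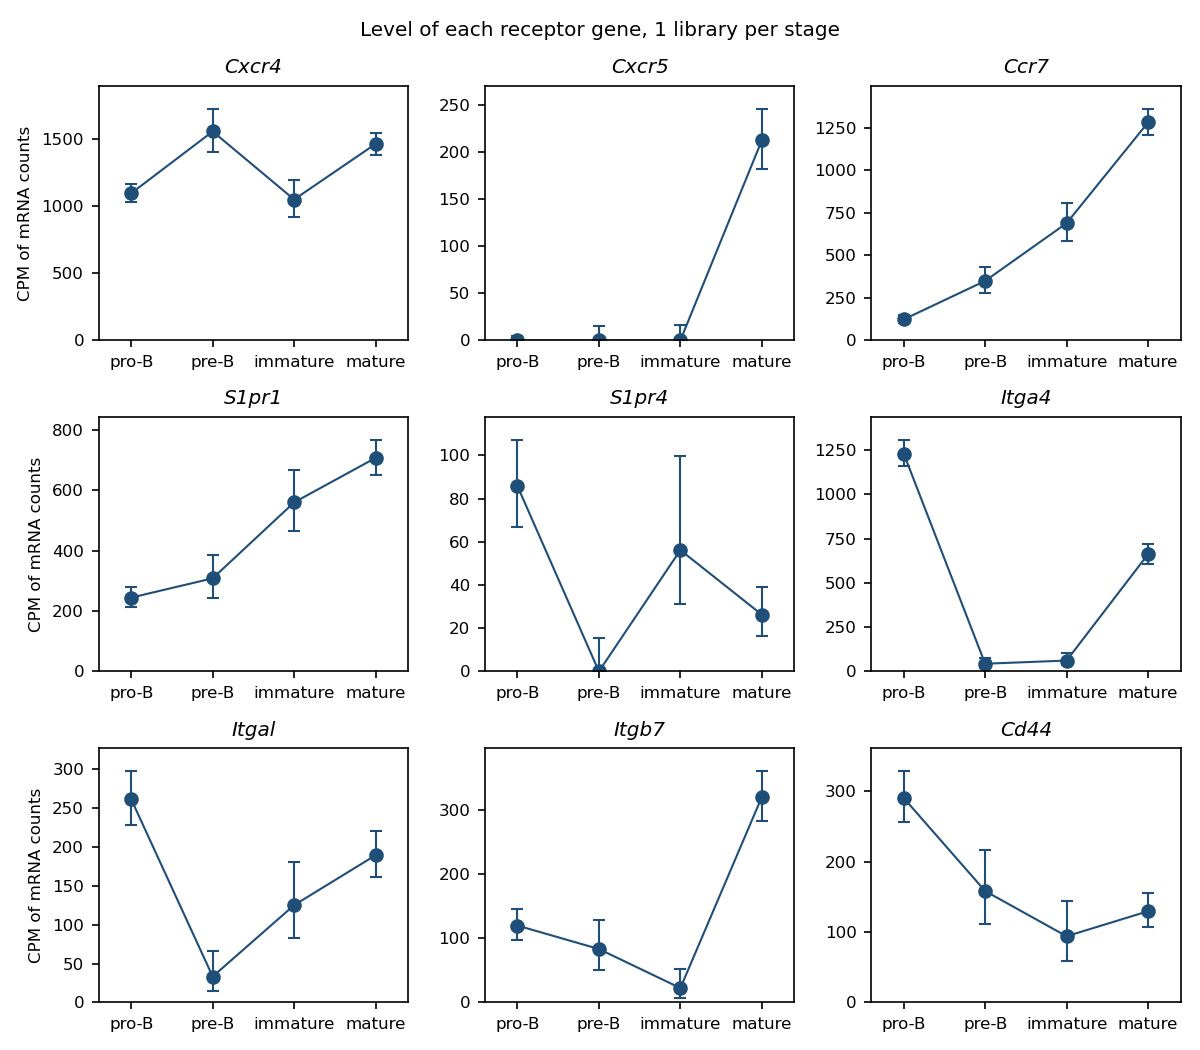
Each panel plots 1 gene: the x axis gives the 4 libraries in order of development and the y axis the level in CPM of the mRNA counts, with points for single libraries and bars for 95% exact Poisson intervals. Ccr7 and S1pr1 climb from pro-B to mature B cells, Itga4 drops from 1231 to 43.5 CPM between pro-B and pre-B cells, and Cxcr5 is above 0 only in the mature B library.

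S1pr1 (ENSMUSG00000045092), the main egress receptor, had 212, 74, 125 and 600 counts from pro-B to mature B cells. These are 244 CPM (212 to 279), 308 (242 to 387), 559 (466 to 666) and 706 (651 to 765). The order of the 4 libraries was the order of development, but the intervals of pro-B and pre-B overlapped, as did those of immature B and mature B cells. The steps were 1.26-fold (0.954 to 1.65), 1.82-fold (1.35 to 2.45) and 1.26-fold (1.04 to 1.54) in order of development, with overlapping intervals. No single step passed 2-fold in CPM, whereas mature B cells stood 2.89-fold (2.47 to 3.4) above pro-B cells.

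S1pr4 (ENSMUSG00000044199), another S1P receptor of lymphoid cells, was the lowest of the 9 genes in mature B cells on the per-length FPKM scale. Its counts were 74.43, 0, 12.55 and 22.32, which is 85.8 CPM (66.9 to 107), 0 (up to 15.4), 56.2 (31.0 to 99.5) and 26.3 (16.2 to 39.2). Against the floor, it fell at least 6.87-fold from pro-B to pre-B cells, and it was at least 4.50-fold higher in immature B than in pre-B cells. The counting intervals of these ratios start at 5.42 and 3.28. Mature B cells lay 2.14-fold (1.04 to 4.66) below immature B cells and 3.26-fold (2.02 to 5.57) below pro-B cells. The value for mature against immature B cells depends on scaling: with trimmed mean (TMM) scaling its log2 ratio went from -1.10 to -1.01, with an interval that reached 1. The summed levels of the T and NK cell genes and of the plasmacytoid dendritic cell genes were highest in the pro-B library. S1pr4 was also highest there, as were Itga4, Itgal and Cd44, and the part of such cells in these values was not tested.

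Itga4 (ENSMUSG00000027009), the α4 chain, made the largest step between adjacent stages among the genes above 0 in both libraries. Its counts were 1068.18 in pro-B, 10.44 in pre-B, 13.69 in immature B and 562.30 in mature B cells. In CPM these are 1231 (1158 to 1307), 43.5 (19.96 to 76.6), 61.3 (34.2 to 105) and 662 (608 to 719). It was therefore high in the first and the last library and low in both in between, with no overlap between the high pair and the low pair. It fell 28.3-fold (16.0 to 61.8) from pro-B to pre-B cells and rose 10.8-fold (6.24 to 19.4) from immature B to mature B cells. Pre-B and immature B cells differed by 1.41-fold (0.622 to 3.79), and mature B cells lay 1.86-fold (1.68 to 2.06) below pro-B cells, short of 2-fold.

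The lncRNA table listed 4 noncoding transcripts of Itga4. They summed to 179.83 counts in pro-B, 10.43 in pre-B, 13.70 in immature B and 125.40 in mature B cells. Set beside the gene's counts in the mRNA table, these sums came to 16.8%, 99.9%, 100% and 22.3%. In pre-B and immature B cells the noncoding transcripts thus matched the whole count of the gene to within 0.01 counts. The folds of Itga4 between these libraries and the other 2 therefore need not measure its coding mRNA. Ptprc, the gene of the B220 antigen on which all 4 populations were gated, was also low in these 2 libraries (39.1 and 69.8 CPM) and high in the other 2 (290 and 676 CPM).

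Itgal (ENSMUSG00000030830), the αL chain of LFA-1, also dipped in pre-B cells. Counts of 227, 8, 28 and 161 gave 262 CPM (229 to 298), 33.3 (14.4 to 65.6), 125 (83.2 to 181) and 190 (161 to 221). The pre-B library was below all others, and the intervals of immature B and mature B cells overlapped. Itgal fell 7.85-fold (3.92 to 18.4) from pro-B to pre-B cells and rose 3.76-fold (1.67 to 9.55) from pre-B to immature B cells. The step to mature B cells was 1.51-fold (1.01 to 2.35), and mature B cells had 0.725 (0.589 to 0.891) of the pro-B level.

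Itgb7 (ENSMUSG00000001281), the β7 chain, had its lowest value in immature B cells. Its counts were 104, 20, 5 and 272, or 120 CPM (97.9 to 145), 83.3 (50.9 to 129), 22.4 (7.26 to 52.2) and 320 (283 to 361). Mature B cells stood above all other libraries, the intervals of pre-B and immature B cells overlapped, and the immature B value rests on 5 counts. Itgb7 fell 3.72-fold (1.36 to 12.7) from pre-B to immature B cells, rose 14.3-fold (6.06 to 44.4) to mature B cells, and was 2.67-fold (2.12 to 3.38) higher in mature B than in pro-B cells. Its ratio for pre-B against pro-B cells was 0.695 (0.408 to 1.13), which the counting error does not separate from 1.

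Cd44 (ENSMUSG00000005087), the hyaluronan receptor, was highest in pro-B cells. It had 252, 38, 21 and 110 counts, or 290 CPM (256 to 328), 158 (112 to 217), 94.0 (58.2 to 144) and 130 (106 to 156). The pro-B library stood above the other 3, whose neighbouring intervals overlapped. The steps between adjacent stages stayed under 2-fold, with 1.84-fold lower (1.301 to 2.65) for pre-B against pro-B, 1.68-fold lower (0.963 to 3.02) for immature B against pre-B and 1.38-fold higher (0.859 to 2.32) for mature B against immature B cells. Mature B cells lay 2.24-fold (1.79 to 2.83) below pro-B cells. That call rests on the scaling, since with the size factors of DESeq2 or upper-quartile scaling the log2 ratio was -0.98, on the other side of the threshold of -1.

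Promoter windows in RefSeq's GRCm38.p6 tables were matched by symbol for 5 of the 9 genes, which were Cxcr4, Itga4, Cd44, S1pr4 and Itgb7. Each window was searched on both strands for CACCC (a KLF box, with GGGTG on the other strand), GTAAACA (a FOXO site, TGTTTAC) and CAGGTG (an E box, CACCTG). None of these motifs overlapped another in the windows. The 250 bases before the start are shown for the 3 genes whose window lies outside the gene. They set Cxcr4, which was steady in CPM but not in FPKM, beside Itga4 and S1pr4, which were low or at 0 in pre-B cells. The capitals mark the matches.
Itga4, chr2:79255176-79255425, plus strand: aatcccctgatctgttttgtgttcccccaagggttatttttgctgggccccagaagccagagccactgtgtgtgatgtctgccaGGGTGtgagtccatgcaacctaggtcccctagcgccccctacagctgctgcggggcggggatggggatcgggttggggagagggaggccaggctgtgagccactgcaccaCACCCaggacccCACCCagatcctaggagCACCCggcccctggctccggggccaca
Cxcr4, chr1:128592300-128592549, minus strand: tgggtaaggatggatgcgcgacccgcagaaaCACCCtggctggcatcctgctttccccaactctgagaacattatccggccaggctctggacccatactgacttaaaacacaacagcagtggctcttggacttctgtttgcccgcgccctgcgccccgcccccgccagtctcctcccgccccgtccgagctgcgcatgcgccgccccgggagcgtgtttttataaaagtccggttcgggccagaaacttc
S1pr4, chr10:81500138-81500387, minus strand: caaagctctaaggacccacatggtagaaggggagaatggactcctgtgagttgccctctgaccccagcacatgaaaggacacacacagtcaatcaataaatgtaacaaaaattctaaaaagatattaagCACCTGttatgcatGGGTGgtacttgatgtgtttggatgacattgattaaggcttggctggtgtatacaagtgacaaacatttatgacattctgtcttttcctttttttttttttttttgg

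The Itga4 window held 4 KLF boxes, 3 of them within 56 bases of the start, and the Itgb7 window also held 4. Cxcr4 held 1, at 219 bases before the start, and S1pr4 held 1 KLF box and 1 E box. Cd44 held none of the 3 motifs, and no window held the FOXO letters. Of 32851 windows of this length, 52% held at least 1 KLF box, 17.2% an E box and 3.17% the FOXO letters, so a match by itself is common for the KLF box. GC content was 64.0% for Itga4, 61.2% for Cxcr4, 56.4% for Cd44, 56.0% for Itgb7 and 38.8% for S1pr4, beside a median of 52.4% over all windows.

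The first comparison asked which receptors differed between pro-B and pre-B cells. Ccr7 was higher, and S1pr4, Itga4 and Itgal were lower. So 1 of 8 tested members was higher and 3 were lower, beside 14.4% and 23.8% of all 9707 genes tested, and Cxcr5 was at 0 in both libraries. The 10.44 counts of Itga4 in pre-B cells matched the 10.43 of its noncoding transcripts. The median log2 ratio over the 8 members was -0.70, beside -0.35 over all genes. All members but Cxcr4 and Ccr7 fell in the longer length groups described below, whose medians over all genes were -0.50 and -0.73. Among 9 partner chains and other integrins, 8 were tested, of which 1 was higher and 5 were lower. Itgb1 and Itgb2, the β partners of α4 and αL, fell 2.30-fold (1.48 to 3.76) and 2.94-fold (1.76 to 5.26), Itga6 fell 7.98-fold (2.66 to 39.7), Itgav fell 4.71-fold (2.09 to 13.1) and Itga5 fell 5.33-fold (1.999 to 20.05). Of 12 other homing and egress receptors 8 were tested. Gpr183, which guides B cells by oxysterols, rose 3.61-fold (2.66 to 4.90) and Ackr3, a scavenger of CXCL12, rose 7.23-fold (2.51 to 23.5) on 12 against 6 counts. Selplg, the ligand of selectins, fell at least 18.2-fold, and the chemokine receptors Ccr2 and Ccr9 were the others that fell. Ccr9 also served above as a plasmacytoid dendritic cell gene, with 161 CPM in pro-B and 58.3 in pre-B cells, and the part of such cells was not tested. Of 11 genes for integrin activation all were tested and 3 fell, among them Rasgrp2, an activator of Rap1, 5.73-fold (3.56 to 9.73). Most of the partner genes that differed were thus lower in pre-B cells, as were most genes that differed in the whole table.

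**Figure D2:**
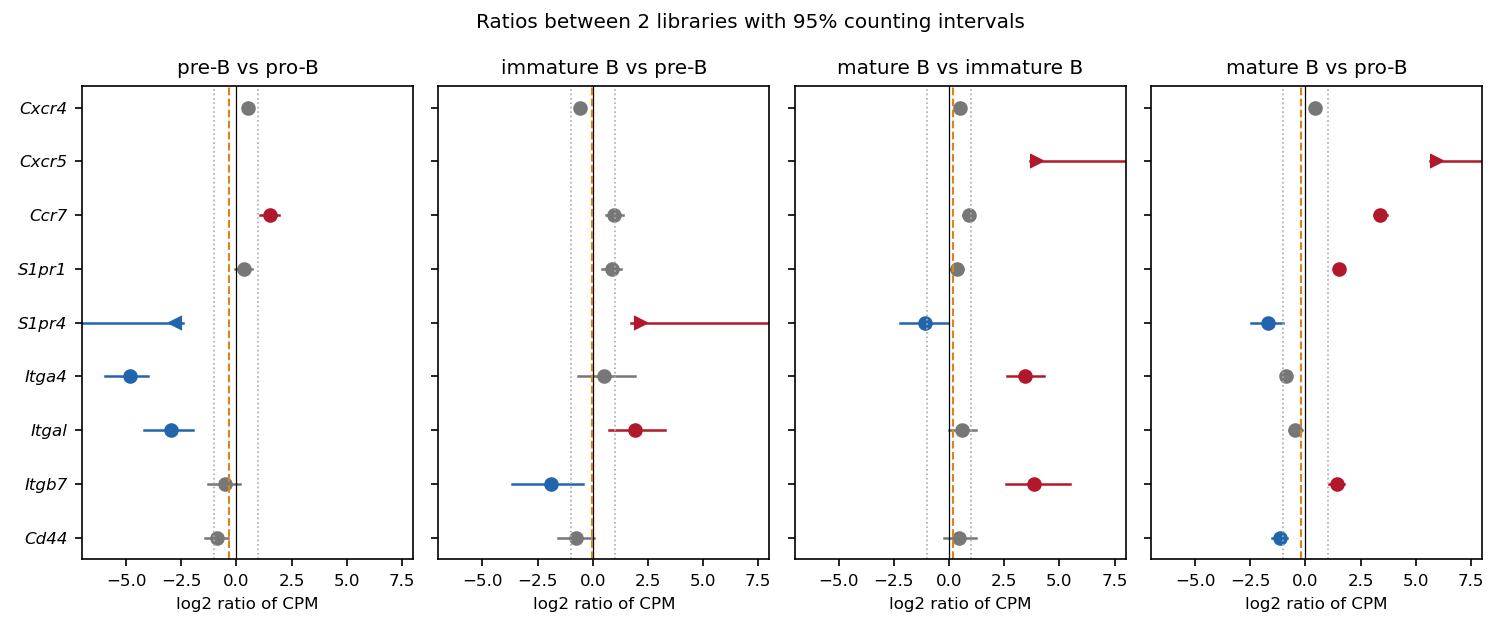
Each panel shows 1 comparison: the x axis is the log2 ratio of CPM, lines are 95% exact binomial intervals, triangles are bounds against 3 counts with lines open to the edge, red and blue mark genes called higher and lower, and grey marks genes not called. Dotted lines mark 2-fold and the dashed orange line the median of all genes tested; Itga4 lies at -4.82 for pre-B against pro-B cells and at 3.43 for mature against immature B cells.

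The second comparison was between pre-B and immature B cells, the stages on either side of surface IgM. Itgal was higher, S1pr4 was at least 4.50-fold higher, and Itgb7 was lower. So 2 of 8 tested members were higher and 1 was lower, beside 12.4% and 12.5% of 7002 genes. The median log2 ratio was 0.68 over the members and -0.01 over all genes. All 3 calls rest on few counts, with 12.55 against 0 for S1pr4, 28 against 8 for Itgal and 5 against 20 for Itgb7. Of 7 integrin partners tested, 0 were higher and 0 were lower. Of the other receptors 5 were tested and 1 rose, Cnr2, a cannabinoid receptor that helps to retain immature B cells in marrow sinusoids, at 10.7-fold (2.61 to 94.8) on 20 against 2 counts. Of 10 tested genes for integrin activation 2 rose, Fermt3, which encodes kindlin-3, 11.0-fold (4.22 to 33.9), and Rasgrp2 2.64-fold (1.49 to 4.83).

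The third comparison followed immature B into mature B cells. Itga4, Itgb7 and Cxcr5 were higher, and S1pr4 was lower. So 3 of 9 members were higher and 1 was lower, beside 19.7% and 17.6% of 8988 genes. The median log2 ratio was 0.60 over the members and 0.16 over all genes, but 0.32 and 0.52 in the longer length groups that held all members except Cxcr4 and Ccr7. Genes of both chains of the α4β7 integrin were thus called higher, but from 13.69 counts for Itga4 and 5 for Itgb7 in immature B cells. The Itga4 counts there matched the 13.70 of its noncoding transcripts. Of 8 integrin partners tested 2 were higher, Itgb1 2.03-fold (1.04 to 4.39) and Itgav 7.43-fold (2.82 to 27.8), and 2 were lower, Itga5 and Itga9. Of 9 other receptors 4 were higher and none was lower by this rule. Selplg rose 11.3-fold (1.93 to 457) from a single count, Cnr2 2.41-fold (1.51 to 4.03), Gpr174, a lysophosphatidylserine receptor, at least 6.58-fold, and Ccr6, the receptor for CCL20, at least 5.17-fold. Of 11 genes for integrin activation 2 rose, Rasgrp3 6.72-fold (3.01 to 18.6) and Apbb1ip 2.13-fold (1.06 to 4.85), and Rap1a fell 2.099-fold (1.496 to 2.92).

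The last comparison set the ends of the series side by side, at 849350 and 867920 mRNA counts. Cxcr5, Ccr7, S1pr1 and Itgb7 were higher in mature B than in pro-B cells, and S1pr4 and Cd44 were lower. So 4 of 9 members were higher and 2 were lower, beside 10.9% and 20.8% of 10313 genes. The median log2 ratio was 0.42 over the members and -0.18 over all genes. Of 8 integrin partners 0 were higher and 4 were lower, which were Itga9, Itgam, Itgb1 and Itga5, the last 37.7-fold lower (10.1 to 317) on 2 against 77 counts. Of 10 other receptors 4 were higher, among them Cnr2 46.8-fold (17.95 to 173), Ccr6 at least 20.1-fold and Gpr183 4.19-fold (3.32 to 5.35). Another 3 were lower, which were Ccr2, Ccr9 and Selplg. Ccr9 and Itgam were also in the lists of plasmacytoid dendritic cell and myeloid genes, and the part of such cells was not tested. Of the genes for integrin activation 3 of 11 rose and none fell by this rule, with Fermt3 11.6-fold (6.70 to 20.8) and Rasgrp3 15.7-fold (8.27 to 33.3) higher. The 4 comparisons share libraries, so a low or high value in 1 library enters 2 of them.

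**Figure D3:**
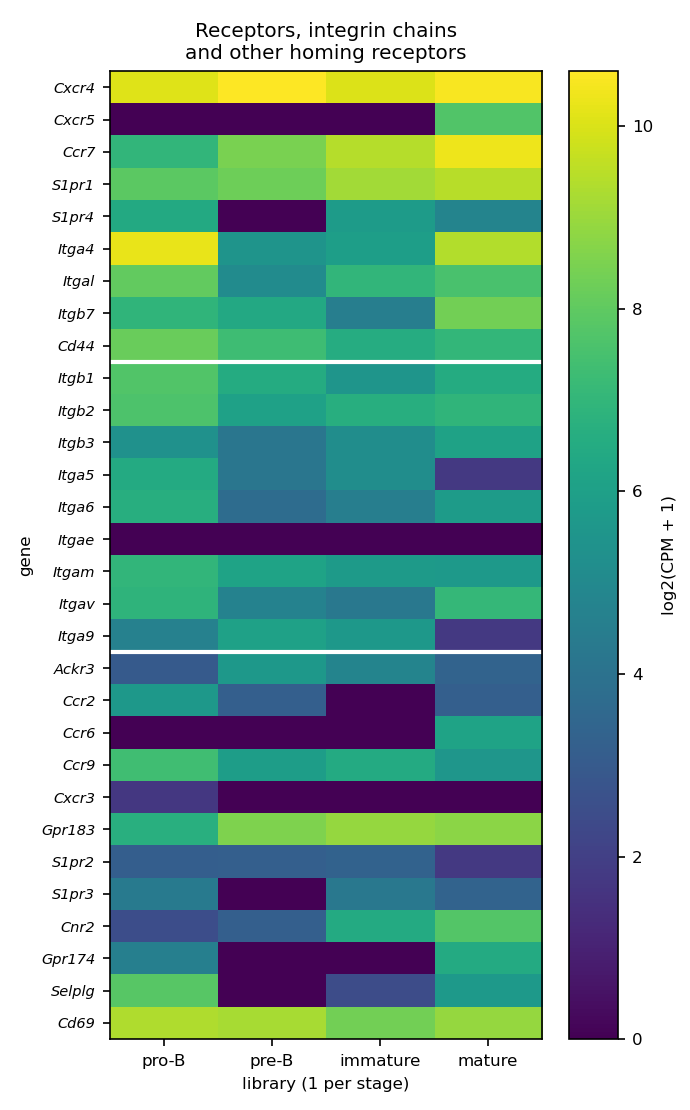
Colour gives log2(CPM + 1) for the 9 receptor genes (top), 9 integrin chains (middle) and 12 other homing and egress receptors (bottom) in the 4 libraries on the x axis. The mature B library is the brightest for Cnr2 (215 CPM) and Itgb7 (320 CPM), and Itgae is at 0 in all 4.

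The deposited FPKM values changed the picture for the steps into and out of the 2 middle stages. FPKM scales fragments by transcript length and by the fragments mapped to all reference genes, and the mRNA table held 23.7% of the summed counts of the mRNA and lncRNA tables in pro-B, 6.47% in pre-B, 6.48% in immature B and 23.5% in mature B cells. The median log2 ratio of all genes was shifted in FPKM by -1.83 for pre-B against pro-B and by 1.80 for mature B against immature B cells, while the other comparisons moved by 0.05 and 0.01. On this scale Cxcr4 had 131.11, 47.91, 29.12 and 179.44 FPKM from pro-B to mature B cells, S1pr1 had 12.80, 4.23, 7.80 and 37.26 FPKM and Ccr7 had 9.95, 7.39, 14.81 and 104.06 FPKM. The ratio of pre-B to pro-B cells then had the opposite sign for these 3 genes, with log2 ratios of -1.45, -1.60 and -0.43, and S1pr4 turned to 0.82 for mature against immature B cells. Itga4, with 34.37, 0.83, 1.68 and 21.29 FPKM, and Itgal, with 8.55, 0.31, 1.02 and 6.62 FPKM, were low in pre-B cells on both scales. When the shift of the median was taken out of the FPKM ratios, Ccr7 stayed above its pro-B level in pre-B cells, while Itgb7 turned to a log2 ratio of 1.62.

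**Figure D4:**
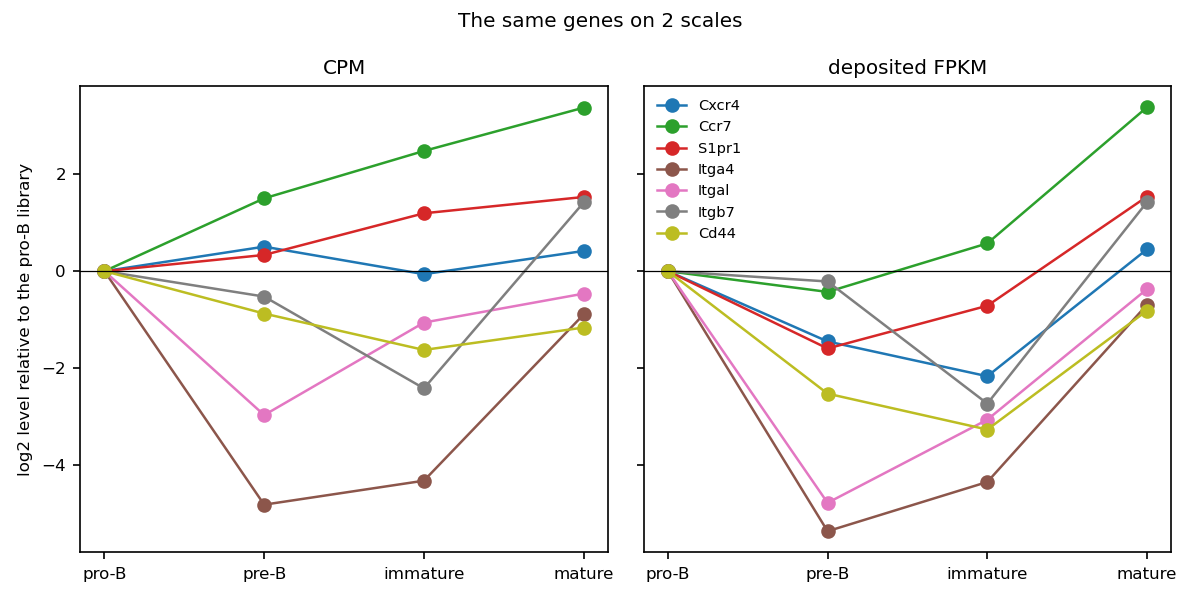
The x axis gives the 4 libraries and the y axis the log2 level relative to the pro-B library, in CPM on the left and in deposited FPKM on the right, for the 7 genes above 0 in every library. In pre-B cells Cxcr4, Ccr7 and S1pr1 lie above 0 in CPM and below 0 in FPKM, while Itga4 and Itgal are far below 0 in both.

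Levels of different genes were compared only in FPKM. Cxcr4 had the highest FPKM of the 9 genes in all 4 libraries and made up 58.0%, 68.8%, 50.0% and 45.8% of their summed FPKM from pro-B to mature B cells. Itga4 was the next in pro-B cells at 34.37 FPKM, followed by Cd44 at 16.52. From pre-B cells on the second place went to Ccr7, but in pre-B cells its interval (7.39 FPKM) overlapped that of Itgb7 (6.15), which rests on 20 counts. In mature B cells S1pr1, Itga4 and Itgb7 came next after Ccr7 at 37.26, 21.29 and 19.18 FPKM. Of 28 pairs of neighbours in these orders, 16 had overlapping counting intervals, among them Itga4 and Itgb7 in mature B cells. In pro-B cells the neighbours from Cd44 down to S1pr4 all overlapped in turn.

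Transcript length moved with the 2 middle libraries. A gene's length was read from its counts and FPKM, and all genes were split by it into 4 groups of equal size over the table. For pre-B against pro-B cells the median log2 ratio was 0.05 in the shortest group, -0.36 and -0.50 in the next and -0.73 in the longest. For mature B against immature B cells it was -0.19, 0.12, 0.32 and 0.52. Itga4, at 7.89 kb, and Itgal, at 6.99 kb, were in the longest group and Cxcr4, at 1.94 kb, in the shortest. Relative to the median of its length group every call of the 9 genes kept its side of the threshold. Of 34 ratios 30 counted as unchanged, by a kept call or, where not called, by a value inside the counting interval. Called ratios were not checked against their intervals. The length implied for Itga4 itself was 8.48, 3.39, 2.36 and 7.31 kb from pro-B to mature B cells and that for Itgb7 was 3.98, 0.877, 1.35 and 3.92 kb, smaller in both middle libraries than at either end. The part of length or RNA quality in these values was not tested.

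**Figure D5:**
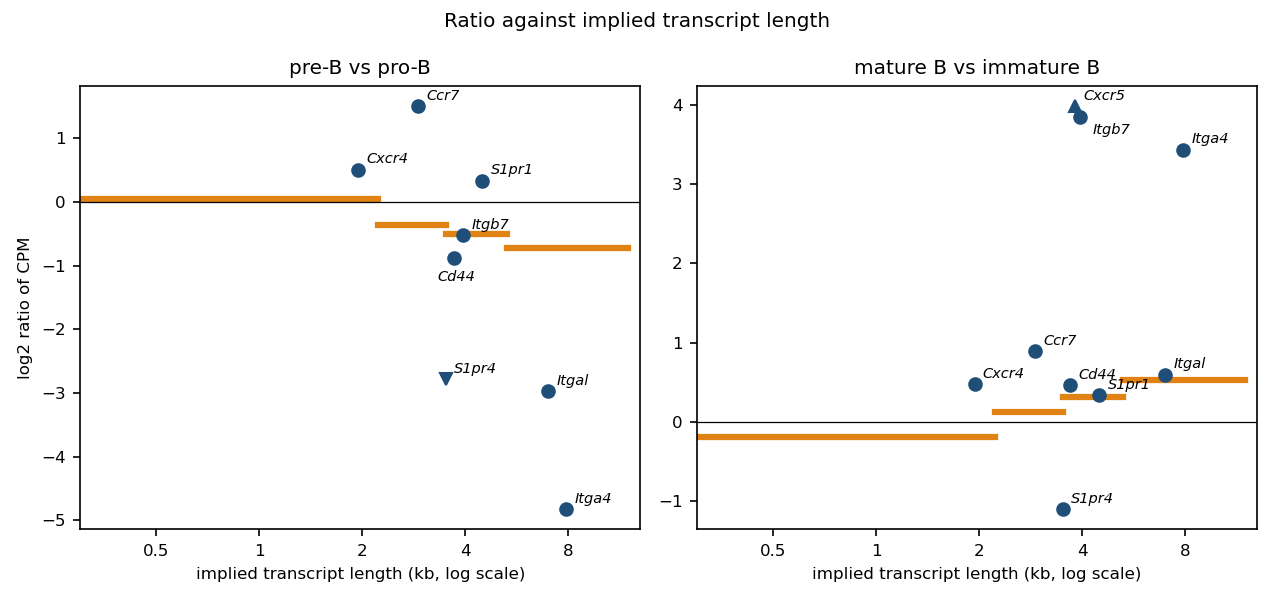
The x axis is the transcript length implied by counts and FPKM (kb, log scale) and the y axis the log2 ratio of CPM, for pre-B against pro-B (left) and mature B against immature B cells (right). Points are the receptor genes, triangles are bounds against 3 counts, and orange bars are the medians of all genes in each of the 4 length groups, with the longest drawn only to 12 kb; Itga4 lies at -4.82 where the bar of its group lies at -0.73.

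The genes with the most similar profile were sought among 4738 genes with at least 100 counts over the 4 libraries, by the root mean square distance of centred log2(CPM + 1) values over these 4 points. The nearest to Cxcr4 was Tnfaip8 at a distance of 0.019, then Mapk3 at 0.0263 and Nmt1 at 0.0542. The nearest to Cxcr5 were Fchsd2 (0.145), Fcer2a (0.427), which encodes the low-affinity IgE receptor CD23, and Ash1l (0.536), all at 0 outside mature B cells. Ccr7 lay nearest to Hsd11b1 (0.207), Il21r (0.246) and Swap70 (0.343), and S1pr1 to Micall1 (0.103), Itpr3 (0.139) and Klhl18 (0.141). These genes climb from pro-B to mature B cells, as Il21r does with 29.99, 62.4, 107 and 232 CPM. S1pr4 lay nearest to Spred1 (0.278), Khnyn (0.334) and Yeats2 (0.439), all at 0 in pre-B cells. The nearest to Itga4 were Ipcef1 (0.428), Wdr81 (0.430) and Spata13 (0.475), those to Itgal were Socs6 (0.0568), Zbtb20 (0.0637) and Ifnar1 (0.083), and those to Itgb7 were Zswim6 (0.243), Mgrn1 (0.253) and Klf3 (0.257). Klf3, a KLF repressor, had 83.0, 70.8, 17.9 and 172 CPM. Cd44 lay nearest to Ddx50 (0.0745), Ccar1 (0.0756) and Vcp (0.0765). With 4 points, small distances are easily met, and the distances are given as a description.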

How the data were processed

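RNA of 4 bone marrow B-cell populations was measured in 1 rRNA-depleted library each. The authors used fastp 0.18.0 for trimming and Bowtie2 2.2.8 against rRNA, mapped strand-specific pairs with HISAT2 2.1.0 and estimated levels with StringTie 1.3.4. The deposited mRNA and lncRNA tables hold estimated counts that need not be whole, and the mRNA table also holds FPKM values that the authors scaled by length and by fragments mapped to reference genes. Counts of back-spliced reads make up the deposited circRNA table. The processing notes name mm9, but 97.8% of 945 circRNAs with a matched parental gene lay within its GRCm38 span, so no coordinates of the tables are given. The miRNA table was not used, and 0 other columns of per-sample values were left out.

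CPM was computed from the mRNA column totals, and ratios carry 95% exact conditional binomial (Clopper-Pearson) intervals on rounded counts. The study's comparison of adjacent stages used edgeR between single libraries, and a quasi-likelihood fit needs replicates, so edgeR's exact test with dispersions of 0.0001 and 0.16 was only an alternative. Simulated Poisson counts with 200 genes changed 4-fold gave recovery of 98% to 99.5%, and 1.41% to 2.24% of unchanged genes were called. The simulation had no variation between animals or libraries, and the changed genes were drawn from those with more counts. It therefore checks only the arithmetic of the rule. It cannot show how the calls would hold in replicates or for genes with few counts. Other alternatives were TMM, upper-quartile and DESeq2 scaling, the deposited FPKM, totals without immunoglobulin and mitochondrial genes, other count minimums and no interval. Ratios of FPKM without the median shift and ratios relative to the median of genes of like length were added after the values were seen. Named are the 9 members, up to 4 called partner genes per list and comparison by size of the log2 ratio, and the 3 nearest profiles per member. Marker genes, gate genes, Itgae and Ash1l's use as a check, and partner genes named beyond the first 4, were chosen after their values were seen. One listed gene is not reported here. The members and lists were chosen with earlier results of these data known. Tools were scipy 1.17.1, pandas 2.3.3 and numpy 2.4.6 under Python 3.11.15, figures by matplotlib 3.10.9, and DESeq2 1.42.0 beside edgeR 4.0.16 under R 4.3.3.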

Additional observations from a re-analysis of the deposited data

Results flagged for a closer look

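Signals of these genes were also present in 2 tables that the comparisons of levels did not use. In the circRNA table, 2 of 1005 circRNAs listed 1 of the 9 genes as parental gene, both on the opposite strand. The circRNA novel_circ_000812, listed as antisense to Cxcr4, had 4 back-spliced reads in the pro-B library and 0 in the other 3. It was picked out because 4 reads exceed the floor of 3, and the counts are too few for a comparison between libraries. The circRNA novel_circ_000913, antisense to Cd44, had 3 reads in pre-B cells and 0 elsewhere.

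In the lncRNA table, 6 transcripts carried the symbol of one of the 9 genes, and the 4 of Itga4 were above 0. All 4 were highest in pro-B cells, at 26.27 counts for ENSMUST00000126312, 103.17 for ENSMUST00000135919, 13.84 for ENSMUST00000141094 and 36.55 for ENSMUST00000155105. ENSMUST00000141094 was the main one in immature B cells, with 11.32 of the 13.70 counts. The transcript of Itgal and that of Cxcr5 were at 0 in every library.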

How the results depend on the processing

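No paired analysis was possible because each stage had 1 library, and for the same reason no replicate could be left out. Of the 34 ratios, all kept their direction and call with totals without immunoglobulin and mitochondrial genes and when the row with the most counts was used. The deposited FPKM turned 4 log2 ratios, for pre-B against pro-B cells Cxcr4 (-1.45), Ccr7 (-0.43) and S1pr1 (-1.60), and for mature against immature B cells S1pr4 (0.82); without its median shift it turned Itgb7 in pre-B against pro-B cells (1.62). The cause was not tested. The main changes in the counts of members called were these. For pre-B against pro-B cells, 0 were higher with FPKM (1.94% of all genes) or edgeR's exact test at a dispersion of 0.16 (6.02%). With FPKM without the median shift 2 were higher (15.2%), and with FPKM 6 were lower, beside 74.5% of all genes. For immature B against pre-B cells, 1 was higher and 0 were lower with a minimum of 30 counts, beside 12% and 13.4% of all genes. The same counts held with the dispersion of 0.16, beside 3.84% and 4.28%. With Ccr7 added, 3 were higher with TMM (12.8% of all genes), upper-quartile (13.3%) or FPKM scaling (15.9%). For mature against immature B cells, 8 were higher with FPKM, beside 69% of all genes. With FPKM without the median shift 4 were higher, with Ccr7 added, beside 22.1%. Lower were 0 with TMM scaling (15.9% of all genes), FPKM (2.67%) and FPKM without the median shift (17.5%). The exact test also gave 0 lower at dispersions of 0.0001 (17%) and 0.16 (7.4%). For mature B against pro-B cells, 2 were higher and 0 were lower with the dispersion of 0.16, beside 4.16% and 9.75% of all genes. With DESeq2 (17.3%), upper-quartile (17.2%), FPKM (22%) or FPKM without the median shift (22.3%), 1 was lower. Depth limits the pre-B and immature B values most, since 3 counts there are worth 12.5 and 13.4 CPM.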

Other observations

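Genes of the signalling path below these receptors and of their ligands were described by lists of the same kind, and the shares of all genes called higher or lower, against which these counts are to be read, stand at the end. Of 18 genes for G protein signalling, 17 were tested for pre-B against pro-B cells, with 0 higher and 3 lower, which were Arrb2, down 8.17-fold (2.16 to 69.0) on 2 against 59 counts, Arrb1, down 7.20-fold (1.89 to 61.0) on 2 against 52, and Rgs1, down 2.25-fold. Arrestins end receptor signalling. For immature B against pre-B cells 14 were tested, 2 were higher (Grk6, a receptor kinase, at 2.54-fold, and Ptk2b at 2.01-fold) and 1 was lower (Gnai3, at 3.22-fold). For mature against immature B cells 16 were tested, and 5 were higher, led by Dock2, the Rac activator of lymphocyte migration, at 4.93-fold (3.88 to 6.35), then Arrb1, Gnai3, Gna13 and Rgs1. The 2 that were lower were Ptk2b, listed at 0 counts in mature B cells against 56, and Rgs2. Ptk2b was 1 of 2 genes at 0 in mature B cells with at least 100 CPM in each other library, so its 0 has the limits given for Cxcr5. For mature B against pro-B cells 17 were tested, 0 were higher and 2 were lower, Ptk2b and Rgs10. Gnai2, the main G protein chain below chemokine receptors, had between 587 and 756 CPM.

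Of 10 ligand genes 4, 2, 4 and 5 were tested over the 4 comparisons. Fn1, which encodes fibronectin, a ligand of α4β1, rose from pro-B to pre-B cells 2.27-fold (1.72 to 2.99) and fell from immature to mature B cells 2.18-fold (1.51 to 3.13). Icam1, a ligand of LFA-1, fell 8.996-fold (2.39 to 75.9) on 2 against 65 counts from pro-B to pre-B cells and rose 5.37-fold (1.15 to 50.4) on 10 against 2 counts to immature B cells. Cxcl13, Ccl19, Ccl21a and Madcam1 were at 0 in all 4 libraries. Of 4 genes of S1P metabolism, Sphk1 had 17 counts in immature B cells and 0 in pre-B and mature B cells, and Spns2, an S1P exporter, was higher in mature B than in immature B cells at 6.32-fold (1.66 to 53.6) on 48 against 2 counts and than in pro-B cells at 2.73-fold. Sphk2 was at least 3.53-fold higher in mature B than in pro-B cells. Of 8 regulators, all tested, Klf2, which is known to act on S1pr1 and Itgb7, rose from pro-B to pre-B cells 2.23-fold (1.80 to 2.78), as did Relb, and Foxo3 and Nfkb2 fell. Nfkb2 then rose and Myb fell in immature B cells, and Myb fell again, 12.5-fold (7.57 to 21.4), in mature B cells, where Foxo1 rose 2.36-fold. For mature B against pro-B cells Relb was higher and Myb was lower. Of the 72 partner genes 58, 48, 60 and 62 were tested in the 4 comparisons, and 6, 8, 15 and 10 were higher, beside 14.4%, 12.4%, 19.7% and 10.9% of all genes tested. Lower were 17, 2, 8 and 10, beside 23.8%, 12.5%, 17.6% and 20.8%.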
